A study of Mus musculus with 48 samples.

Results

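Gata2 and 9 genes of basophils and mast cells were followed through the RNA of spleen monocytes, pre-RPMs and red pulp macrophages (RPMs). The genes were chosen by name, as the transcription factor Gata2 together with Hdc, Mcpt8, Cpa3, Ms4a2, Fcer1a, Cd200r3, Il4, Kit and Clnk, and all 10 were found among the 54735 genes of the count files. The study sorted spleen cells of male Balb/c mice aged 10 weeks, either WT or labelled Il1rl1-/-, a whole-body loss of the IL-33 receptor ST2. Monocytes were gated as Ly6G low, CD11b high and F4/80 negative, pre-RPMs as CD11b high and F4/80 low, and RPMs as CD11b low or negative and F4/80 high. Each of the 24 RNA-seq libraries came from 1 mouse, with 4 mice per genotype and 1 library per mouse number in each of the 3 gates, which gave 6 groups of 4. The 24 ATAC-seq samples were not analysed here.

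Gata2 is a zinc finger transcription factor that binds the sequence GATA and is needed for blood stem cells and for the basophil and mast cell lineages. Basophils and mast cells carry the high-affinity IgE receptor, store histamine and proteases in granules, and secrete IL-4 once the receptor is crosslinked. Mouse basophils carry CD11b and circulate through the spleen, and in the mouse Mcpt8 and Cd200r3 are used to mark them, whereas connective tissue mast cells carry Kit and other proteases. The genes are ordered below by role, as Gata2 itself, the histamine enzyme and proteases (Hdc, Mcpt8, Cpa3), the IgE receptor and its adaptor (Fcer1a, Ms4a2, Clnk), surface receptors (Cd200r3, Kit) and the cytokine Il4.

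The genes lie on 9 chromosomes, and positions below are those of the deposited count files (GRCm38), which give exons only. Gata2 spans chr6:88193891-88207032 on the plus strand, Cd200r3 chr16:44943678-44981380 and Kit chr5:75574916-75656722, also on the plus strand. The other 7 are on the minus strand, with Hdc at chr2:126593667-126619299, Mcpt8 at chr14:56082166-56085273, Cpa3 at chr3:20215620-20242181 and Ms4a2 at chr19:11615523-11623719. Fcer1a is at chr1:173221284-173227214, Il4 at chr11:53602982-53618669 and Clnk at chr5:38706462-38876812. Since Gata2 binds GATA, the promoters of all 10 genes were read for 4 forms of that motif. The first form was AGATAA, which reads TTATCT from the opposite strand. The next was TGATAA, found as TTATCA when the other strand carries it. The remaining forms were AGATAG, whose reverse complement is CTATCT, and finally TGATAG, with CTATCA as its reverse. Matches on either strand were counted. All 10 genes matched a RefSeq promoter entry by symbol, as 13 windows of 300 bases (250 before to 50 after the annotated start, GRCm38.p6). The windows printed here, of the 4 genes with the highest r to Gata2 over the 24 libraries, run 5′ to 3′ on the strand of the gene and carry the motif in capitals, for Ms4a2 at chr19:11623670-11623969 (minus strand), Cd200r3 at chr16:44943428-44943727 (plus strand), Hdc at chr2:126618629-126618928 (minus strand) and Cpa3 at chr3:20242132-20242431 (minus strand).
Ms4a2: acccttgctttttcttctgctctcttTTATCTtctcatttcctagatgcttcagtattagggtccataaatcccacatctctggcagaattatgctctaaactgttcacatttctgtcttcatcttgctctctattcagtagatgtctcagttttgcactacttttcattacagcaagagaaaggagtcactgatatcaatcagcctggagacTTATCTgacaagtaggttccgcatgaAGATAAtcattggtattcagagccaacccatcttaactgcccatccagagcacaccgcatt
Cd200r3: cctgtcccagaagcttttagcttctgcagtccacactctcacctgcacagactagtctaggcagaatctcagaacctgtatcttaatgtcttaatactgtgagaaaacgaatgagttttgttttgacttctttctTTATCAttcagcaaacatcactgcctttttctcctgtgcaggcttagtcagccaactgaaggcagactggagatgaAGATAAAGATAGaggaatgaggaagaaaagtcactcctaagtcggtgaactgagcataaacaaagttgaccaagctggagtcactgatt
Hdc: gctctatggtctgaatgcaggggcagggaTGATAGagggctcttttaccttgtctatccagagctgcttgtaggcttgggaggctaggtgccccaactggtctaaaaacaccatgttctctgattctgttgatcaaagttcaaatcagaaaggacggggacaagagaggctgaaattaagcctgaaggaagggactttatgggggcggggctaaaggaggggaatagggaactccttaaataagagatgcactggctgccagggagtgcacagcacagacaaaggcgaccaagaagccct
Cpa3: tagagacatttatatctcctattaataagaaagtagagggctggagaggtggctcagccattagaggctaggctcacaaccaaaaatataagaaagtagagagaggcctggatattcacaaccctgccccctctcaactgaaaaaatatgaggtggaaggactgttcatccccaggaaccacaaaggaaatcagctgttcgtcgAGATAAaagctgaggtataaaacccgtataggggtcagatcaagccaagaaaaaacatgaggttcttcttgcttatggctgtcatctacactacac
Ms4a2, the beta chain of the IgE receptor, held 3 matches, of which the outermost began 224 bases and the nearest 11 bases before the start. Cd200r3, an activating receptor of the CD200 receptor family, also held 3, at 115, 39 and 33 bases before the start, and its last pair lay directly side by side. Hdc and Cpa3 held 1 match each, as did Fcer1a, Clnk and both windows of Il4. The windows of Gata2, Kit and Mcpt8 held none. Of 32851 RefSeq promoters of the same length, 29.8% held at least 1 match and 1.76% held at least 3. A match describes letters in a window and is neither a binding site nor a cause of any value given here.

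The libraries held 3562367 to 6559454 counted reads (median 4728764.5), and levels are given as counts per 1000000 counted reads after TMM scaling of each library's total (CPM). On that scale 3 counts, the floor used here, stood for 0.449 to 0.892 CPM. The labelled gates were checked against marker genes. Ly6c2, a gene of classical monocytes, averaged 46.2 CPM in WT monocytes, 49.8 in WT pre-RPMs and 2.29 in WT RPMs, and all 7 red pulp macrophage genes were higher in RPMs than in pre-RPMs in both genotypes. The monocyte list of 5 genes that holds Ly6c2 did not mark the monocyte gate. Its mean sum was 731 CPM in WT monocytes, 1259 in WT pre-RPMs and 1476 in WT RPMs. With the label Il1rl1-/- these sums were 866, 1408 and 1622 CPM. Genes of other cells were present too, and those of NK cells and neutrophils summed to 534 to 1785 CPM and 477 to 1629 CPM in WT monocytes. Il1rl1, the targeted gene, went against the label. It averaged 3.19 ± 1.05 CPM in WT monocytes and 14.1 ± 1.44 in monocytes labelled Il1rl1-/- (SD, n = 4 each), and it was higher by 1.52 on the log2 scale (SE 0.20) in pre-RPMs of that label (edgeR, adjusted p = 0.00107). In RPMs the order was the reverse, at 1.94 ± 0.800 against 0.826 ± 0.482 CPM. The libraries are therefore named by their labels, and each direction between genotypes given here holds for labels only.

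By group means, Gata2 and most of its companions were highest in WT monocytes, lower in WT pre-RPMs and at or near the floor in RPMs. Between WT monocytes and WT pre-RPMs the libraries of every gene but Clnk overlapped, those of Gata2 included. Of 40 gene and library pairs, 37 exceeded 3 counts in WT monocytes, 33 in WT pre-RPMs and 13 in WT RPMs. In the libraries labelled Il1rl1-/- monocytes had 32 such pairs, pre-RPMs 15 and RPMs 8. Per kilobase of exon in WT monocytes, the mean CPM was highest for Clnk (4.72 ± 1.65), followed by Mcpt8 (3.13 ± 1.97) and Gata2 (2.81 ± 1.73), and lowest for Il4 (0.423 ± 0.223, n = 4 each). The neighbors in that order lay within each other's spread. In WT pre-RPMs Gata2 led on the same scale at 2.30 ± 1.48 CPM per kilobase, ahead of Cpa3 at 1.72 ± 0.806, and Clnk was last at 0.187. In bulk RNA, fewer cells of a type and less RNA per cell cannot be told apart, and this holds for every level below.

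**Figure D1:**
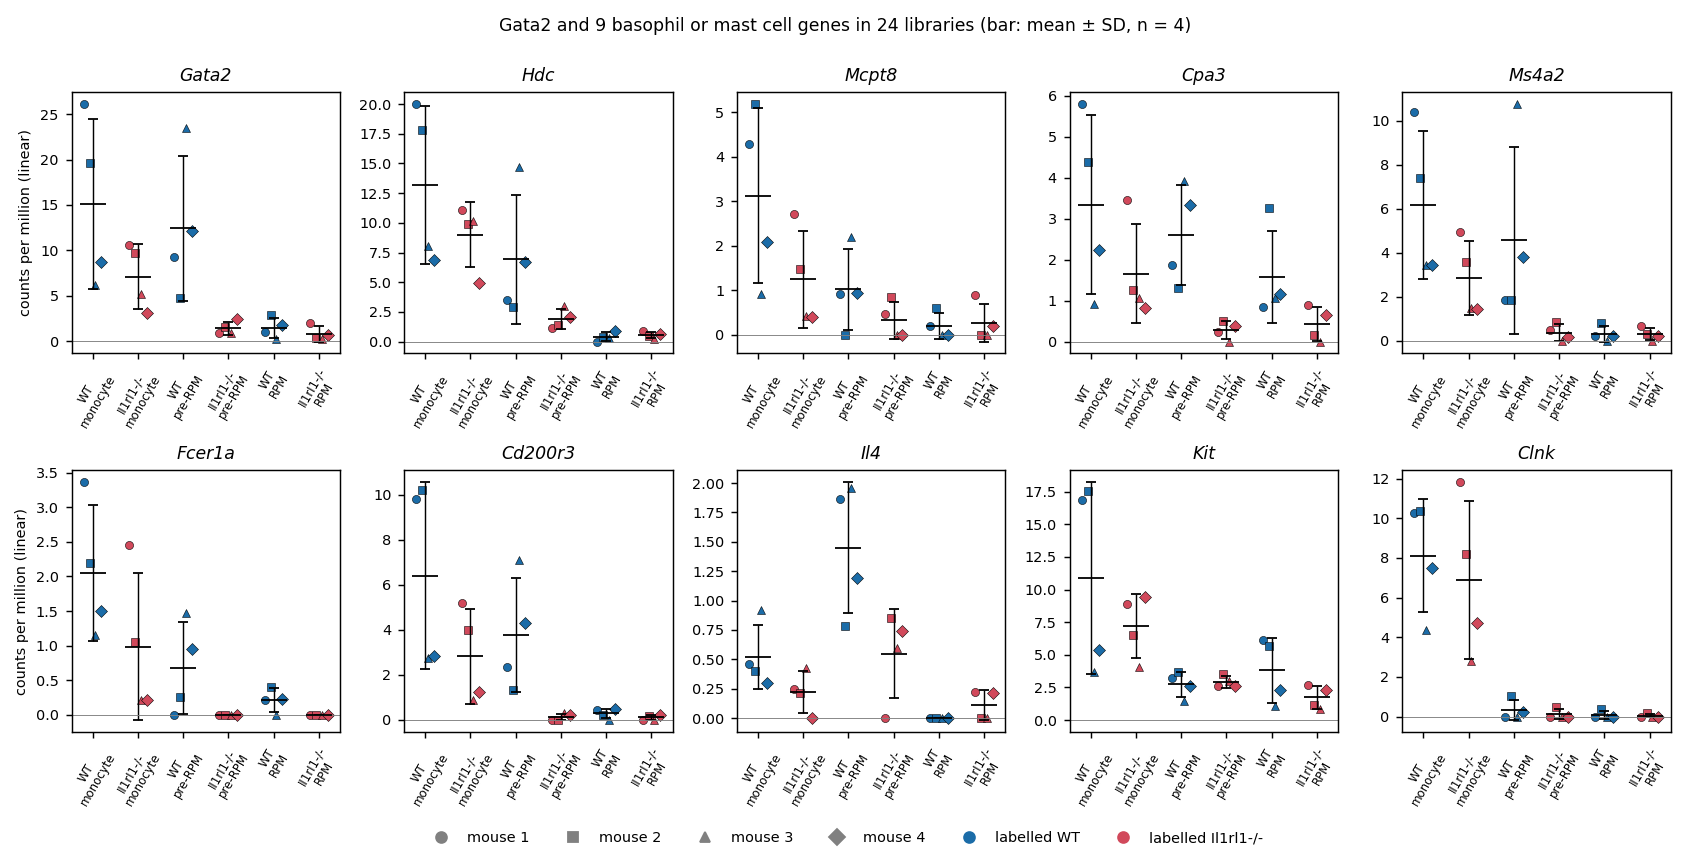
CPM of each of the 10 genes (y axis, linear) in every library of the 6 groups (x axis), with the marker shape giving the mouse number, blue for WT, red for the label Il1rl1-/-, and bars for the mean ± SD (n = 4). Gata2 lies between 4.72 and 23.5 CPM in the 4 WT pre-RPM libraries and between 0.892 and 2.42 CPM in the 4 labelled Il1rl1-/-, whereas Kit overlaps between them.

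Between genotypes, the clearest difference was in pre-RPMs. Gata2 was measured at 9.30, 4.72, 23.5 and 12.1 CPM in WT pre-RPMs of mice 1 to 4, and at 0.945, 1.53, 0.892 and 2.42 CPM in those labelled Il1rl1-/-. The lowest WT library lay above the highest library labelled Il1rl1-/-. The log2 fold change was -3.01 (SE 0.45, edgeR quasi-likelihood test, adjusted p = 0.00328). It was called in the fits without each of the 8 libraries, with log2 fold changes from -3.37 to -2.51. These fits share most of their libraries and are not repeats. Gata2 held 18 to 96 counts in WT pre-RPMs and 3 to 13 in those labelled Il1rl1-/-. It passed the filter through WT, where it is high, so the call adds little to the values by library. Of the 10 genes, 3 passed the filter on low counts in this comparison and 1 was called, against 0.552% of the 10698 genes tested.

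Of the other 9 genes 8 had a lower mean in pre-RPMs labelled Il1rl1-/-, and Hdc and Kit alone had counts high enough for the edgeR test. Hdc, which makes histamine from histidine, was at 3.49, 2.89, 14.7 and 6.66 CPM in WT pre-RPMs and at 1.18, 1.36, 2.97 and 2.05 CPM in those labelled Il1rl1-/-. The groups overlapped at 2.89 and 2.97 CPM, and the log2 fold change of -1.92 (SE 0.48) was not called (edgeR, adjusted p = 0.109). Without WT pre-RPM mouse 2, which held the lowest WT value, Hdc was called at -2.16 (edgeR, adjusted p = 0.0448).

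Ms4a2 was at 1.86, 1.84, 10.8 and 3.81 CPM in WT pre-RPMs and at 0.473, 0.848, 0 and 0.186 CPM in the 4 labelled Il1rl1-/-. Cd200r3 was at 2.33, 1.31, 7.10 and 4.28 CPM in WT, and its libraries labelled Il1rl1-/- held 0, 0, 1 and 1 counts. Cpa3, a carboxypeptidase of mast cell and basophil granules, was at 1.86, 1.31, 3.92 and 3.33 CPM in WT against 0.236, 0.509, 0 and 0.373 CPM. For all 3 genes every WT library lay above every library labelled Il1rl1-/-. Against a floor of 3 counts per library Cd200r3 was at least 5.63-fold lower and Cpa3 at least 3.90-fold lower. For each of these 3 genes and for Gata2 the exact permutation test over the 8 libraries gave p = 0.0286, two-sided and not adjusted, which is the smallest p that 4 against 4 allows.

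Thus 4 of the 10 genes did not overlap between genotypes in pre-RPMs with the label Il1rl1-/- lower, beside 2.73% of the 12842 genes kept over all libraries. The mean log2 CPM was lower for 9 of the 10 genes, with a median difference of -1.3, and the median over all kept genes was -0.00. Ms4a2, Cd200r3 and Cpa3 did not pass the filter of the edgeR test. With DESeq2, which called 0.456% of genes, 4 were called, Gata2 (log2 fold change -3.05, adjusted p = 3.97e-07), Cd200r3 (-5.11, adjusted p = 0.00233), Ms4a2 (-3.48, adjusted p = 0.00443) and Cpa3 (-3.07, adjusted p = 0.0368). With no filter edgeR called 5, adding Hdc, where 0.889% of all genes were called. A gene that passes a filter only through the group in which it is high had to differ, so these counts add nothing to the values by library.

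The remaining 5 genes showed no such separation in pre-RPMs. Mcpt8, a basophil granule protease, was at 0.930, 0, 2.20 and 0.952 CPM in WT pre-RPMs, against 0.473, 0.848, 0 and 0 CPM in those labelled Il1rl1-/- (exact permutation test, p = 0.229). Fcer1a, the IgE-binding alpha chain, held 0, 1, 6 and 4 counts in WT and 0 in all 4 libraries labelled Il1rl1-/- (exact permutation test, p = 0.143). Il4 was at 1.86, 0.787, 1.96 and 1.19 CPM against 0, 0.848, 0.595 and 0.746 CPM (exact permutation test, p = 0.0571). A single value of Il4, 0.848 against 0.787 CPM, kept its groups from separating. Clnk, an adaptor in immune receptor signaling, held at most 4 counts in any pre-RPM library, and no fold is given. Kit, the receptor of stem cell factor, was at 2.75 ± 0.960 CPM in WT pre-RPMs and 2.94 ± 0.452 in those labelled Il1rl1-/- (n = 4 each), and its log2 fold change was 0.10 (SE 0.32, edgeR, adjusted p = 0.966).

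In monocytes the label Il1rl1-/- went with lower means of all 10 genes, but none passed the test. Gata2 was at 26.2, 19.6, 6.19 and 8.69 CPM in WT monocytes of mice 1 to 4 and at 10.6, 9.67, 5.17 and 3.09 CPM in those labelled Il1rl1-/-. The WT group alone spanned over 4-fold, and the groups overlapped. The log2 fold change of Gata2 was -1.11 (SE 0.49, edgeR, adjusted p = 0.997). Of the 8 genes tested edgeR called 0, of which 2 (Gata2 and Ms4a2) had an unadjusted p under 0.05, and DESeq2 called 0. The share called over all genes was 0.0614%. With no filter on low counts edgeR called Gata2 (adjusted p = 0.000167), Cd200r3 (adjusted p = 0.0201) and Ms4a2 (adjusted p = 0.0460), and the share called over all genes was then 0.448%. The groups of 0 of the 10 genes were apart, beside 1.32% of all kept genes, and the median difference was -0.88 on the log2 CPM scale.

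In RPMs most of the genes were near the floor, apart from Kit and, in WT, Cpa3. Kit held 4 to 29 counts in WT RPMs and 4 to 12 in those labelled Il1rl1-/-. Cpa3 held 4 to 16 counts in WT RPMs and 0 to 4 in those labelled Il1rl1-/-. Its means were 1.58 ± 1.12 and 0.425 ± 0.415 CPM, and the groups overlapped (exact permutation test, p = 0.0571). Gata2 was at 1.06, 2.85, 0.267 and 1.85 CPM in WT RPMs and at 2.02, 0.327, 0.219 and 0.639 CPM in those labelled Il1rl1-/-, which are 1 to 14 reads. The groups overlapped, and at this depth a difference in Gata2 was not detectable (exact permutation test, p = 0.371). Kit was the single gene tested by edgeR, at 3.81 ± 2.5 against 1.76 ± 0.888 CPM (n = 4 each), and was not called (log2 fold change -1.17, edgeR, adjusted p = 0.659). Thus edgeR called 0 of the 10 genes, where 0.233% of genes were called, with Kit at an unadjusted p under 0.05, and DESeq2 called 0. None of the 10 was apart with the label Il1rl1-/- lower, beside 2.19% of kept genes.

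Between gates in WT mice, Gata2 was not called from monocytes to pre-RPMs, whereas Clnk was lower in every pre-RPM library than in any monocyte library. All comparisons between gates share libraries with each other and with those between genotypes, so none of them stands as a repeat of another. The mean of Gata2 was 15.2 ± 9.36 CPM in WT monocytes and 12.4 ± 8.0 CPM in WT pre-RPMs (n = 4 each), with the libraries of both groups interleaved. Its log2 fold change was -0.30 (SE 0.48, edgeR, adjusted p = 0.706), and without WT monocyte mouse 1 it turned to 0.12. Clnk was the one gene called of 7 tested, at 3.57% of all genes called, and the one gene of the 10 whose groups were apart, where 11.1% of kept genes were lower and apart. It passed the filter through monocytes, where it is high, so that its call adds little to its reads, 188 in the 4 WT monocyte libraries and 5 in the 4 WT pre-RPM libraries. The same holds for each call given here of a gene that is at or near the floor in the lower group.

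Kit was called lower in some fits. It was at 16.8, 17.6, 3.67 and 5.39 CPM in WT monocytes and at 3.26, 3.67, 1.47 and 2.62 CPM in WT pre-RPMs. The groups met at 3.67 CPM, and the log2 fold change of -1.98 (SE 0.52) did not pass the threshold of 0.01 (edgeR, adjusted p = 0.0282). With mouse number as a block Kit was called at -1.87 (edgeR, adjusted p = 0.00333), and without WT monocyte mouse 3 at -2.24 (edgeR, adjusted p = 0.00254). The other genes tested, Hdc, Cpa3, Ms4a2 and Cd200r3, had log2 fold changes from -0.93 to -0.39 and were not called (edgeR, adjusted p from 0.212 to 0.632).

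Each gene was also set against Gata2 within its own library, as a description, since this ratio was chosen after the values were seen and restates them. The mean log2 ratio of Hdc to Gata2 was -0.12 in WT monocytes and -0.86 in WT pre-RPMs, and that of Mcpt8 was -2.12 and -3.21. The ratio of Cpa3 was -2.06 and -1.97, and that of Ms4a2 -1.17 and -1.49. For Cd200r3 it was -1.21 and -1.62, for Kit -0.53 and -1.86, and for Fcer1a -2.52 and -3.57. Il4 went the other way, at -3.87 and -2.62. The ratio of Clnk, at -0.72 and -4.10, rests in pre-RPMs on so few reads that the prior count sets much of it. Mcpt8, Fcer1a and Il4 held at most 9 counts in any WT pre-RPM library, so the prior count weighs on their ratios too.

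The reads of Clnk were also taken as a share of the 10-gene total. In WT monocytes Clnk made up 9.54%, 10.9%, 13.5% and 18.3% of the reads of the 10 genes in mice 1 to 4, and in WT pre-RPMs 0%, 5.88%, 0% and 0.658%. Pooled over libraries, this restates its counts as 188 of 1592 reads, or 11.8% (95% Wilson interval 10.3 to 13.5%, counting error only), and 5 of 601, or 0.832% (0.356 to 1.93%). The share of Gata2 was 21.3 ± 2.20% in WT monocytes and 33.1 ± 4.70% in WT pre-RPMs (SD, n = 4 each).

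From WT pre-RPMs to RPMs, Gata2 and Hdc fell. Gata2 was at 1.51 ± 1.10 CPM in WT RPMs, a log2 fold change of -3.01 (SE 0.52, edgeR, adjusted p = 0.000230), and Hdc was at 0.400 ± 0.388 CPM, a change of -4.08 (SE 0.70, edgeR, adjusted p = 0.000219). Of the 10 genes, 3 were tested and 2 called, where 24.7% of all genes were called in either direction. In WT RPMs Gata2 held 1 to 14 counts and Hdc 0 to 4. Both passed the filter through pre-RPMs, so their calls add little to these values. The groups of 5 genes were apart and lower in RPMs, namely Gata2, Hdc, Ms4a2, Cd200r3 and Il4, beside 19.8% of kept genes. Il4 held 3 to 8 counts in WT pre-RPMs and 0 in all 4 WT RPM libraries, and was at least 2.12-fold lower against the floor, while Cd200r3 was at least 5.48-fold lower. Kit, at 3.81 ± 2.5 CPM in WT RPMs, was not called (log2 fold change 0.46, edgeR, adjusted p = 0.421).

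From WT monocytes to RPMs 5 of 7 tested genes were called lower, where 23.9% of all genes were called in either direction. They were Gata2 (-3.29, SE 0.57), Hdc (-5.00, SE 0.61), Ms4a2 (-4.13, SE 0.64), Cd200r3 (-4.41, SE 0.73) and Clnk (-5.92, SE 0.63), with edgeR adjusted p from 2.09e-05 to 0.000740. Of these, Hdc, Ms4a2, Cd200r3 and Clnk held at most 4 counts in any WT RPM library and Gata2 held 1 to 14. All of them passed the filter through monocytes, so their calls add little to the values by library. Fitted changes of genes near 0 in RPMs depend on the prior count, and against the floor Cd200r3 was at least 9.33-fold lower, Clnk at least 11.9-fold, Mcpt8 at least 4.56-fold and Fcer1a at least 2.99-fold. With mouse number as a block Kit was called as a 6th gene, at -1.51 (edgeR, adjusted p = 0.000394), where 23.6% of all genes were called. In all, 8 of the 10 genes were apart and lower, beside 20.5% of kept genes, and the exceptions were Cpa3 and Kit. Il4, 1 of the 8, held only 2 to 4 counts in WT monocytes. Its bound against the floor was 0.757-fold, so no fall beyond the floor is shown for it. Cpa3 was at 0.847, 3.26, 1.07 and 1.15 CPM in WT RPMs, with 16 counts in mouse 2 and 4 or 5 in the others. Its log2 fold change of -1.08 was not called (edgeR, adjusted p = 0.142).

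In mice labelled Il1rl1-/-, Gata2 was already lower in pre-RPMs than in monocytes. Its mean was 7.13 ± 3.59 CPM in monocytes and 1.45 ± 0.711 CPM in pre-RPMs (n = 4 each), and the groups were apart. The log2 fold change was -2.20 (SE 0.45, edgeR, adjusted p = 0.00636). That call was lost on leaving out monocyte mouse 1 or 2 or any 1 of the 4 pre-RPM libraries, with edgeR adjusted p from 0.0104 to 0.0249, and in the fit of all 24 libraries (edgeR, adjusted p = 0.0160). Hdc (-2.28, SE 0.34, edgeR, adjusted p = 0.000967) and Clnk (-5.21, SE 0.76, edgeR, adjusted p = 0.000830) fell as well, which made 3 of 4 tested, where 4.85% of all genes were called. Kit, at -1.28 (SE 0.29, edgeR, adjusted p = 0.0114), was called only with the mouse block (edgeR, adjusted p = 0.00746) or without monocyte mouse 3 (edgeR, adjusted p = 0.00161). The groups of 8 genes were apart and lower in pre-RPMs, all but Mcpt8 and Il4, beside 11.0% of kept genes.

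From pre-RPMs to RPMs of the label Il1rl1-/-, most of the genes were at or under the floor in both groups. Hdc alone was apart, at 1.18 to 2.97 CPM against 0.219 to 0.897 CPM, so that 1 of the 10 genes was lower without overlap, beside 21.4% of kept genes. Kit was the one gene tested and was not called (-0.82, SE 0.35, edgeR, adjusted p = 0.0621), against 26.0% of genes called. From monocytes to RPMs, 4 of 4 tested genes were called lower, where 25.9% of all genes were called, namely Gata2 (-3.16), Hdc (-3.95), Kit (-2.04) and Clnk (-6.48), with edgeR adjusted p from 5.06e-06 to 0.000678. The groups of 7 genes were apart and lower, beside 22.3% of kept genes.

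Whether the fall from monocytes to pre-RPMs differed between the labelled genotypes was tested as an interaction, and it was not shown to differ. The point estimate was -1.90 for Gata2 (SE 0.79, unadjusted p = 0.0280 in edgeR), -3.63 for Cd200r3 (SE 1.3, unadjusted p = 0.0122 in edgeR) and -2.23 for Ms4a2 (SE 1.01, unadjusted p = 0.0410 in edgeR). None of the 8 genes tested was called with edgeR (adjusted p = 1.00 for each), 3 had an unadjusted p under 0.05, DESeq2 called 0, and edgeR called 0.00% of 11960 genes, of which 454 had an unadjusted p under 0.05. With no filter edgeR called Gata2 (-1.87, adjusted p = 0.000799) and Cd200r3 (-3.6, adjusted p = 0.00315), where 0.227% of all genes were called. For the change from pre-RPMs to RPMs edgeR called 0 of 3 genes tested, with 1 (Hdc) at an unadjusted p under 0.05, and DESeq2 called 0, where 0.107% of all genes were called. The estimate was 2.01 for Gata2 (SE 0.98, edgeR, adjusted p = 0.683) and 2.37 for Hdc (SE 1.06, edgeR, adjusted p = 0.621).

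The mice of 1 group differed from each other, and part of the genes shared the order of Gata2. In WT monocytes Gata2 was highest in mouse 1, followed by mice 2, 4 and 3. Ms4a2, Cpa3 and Fcer1a had the same order, Mcpt8, Cd200r3, Kit and Clnk were highest in mouse 2, Hdc was lowest in mouse 4, and Il4 was highest in mouse 3. In WT pre-RPMs Gata2 was highest in mouse 3, followed by mice 4, 1 and 2. Hdc, Cpa3, Ms4a2, Cd200r3 and, on 0 to 9 counts, Mcpt8 stood in that same order of mice. Fcer1a, on 0 to 6 counts, had mice 1 and 2 exchanged. Kit and Clnk were highest in mouse 2, and Il4 had mouse 1 as its next highest after mouse 3. Summed over the 9 genes other than Gata2, WT monocytes held 81.2, 75.5, 26.1 and 32.2 CPM in mice 1 to 4, and WT pre-RPMs 15.6, 13.1, 43.6 and 24 CPM. Thus mice 1 and 2 were high in the monocyte gate and low in the pre-RPM gate, and mouse 3 the reverse. In WT RPMs the sums were 8.05, 11.8, 2.40 and 5.31 CPM, again with mice 1 and 2 above mice 3 and 4. Of the 8.05 CPM in mouse 1, Kit alone held 6.14, so the place of mouse 1 above mouse 4 rests on Kit.

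**Figure D2:**
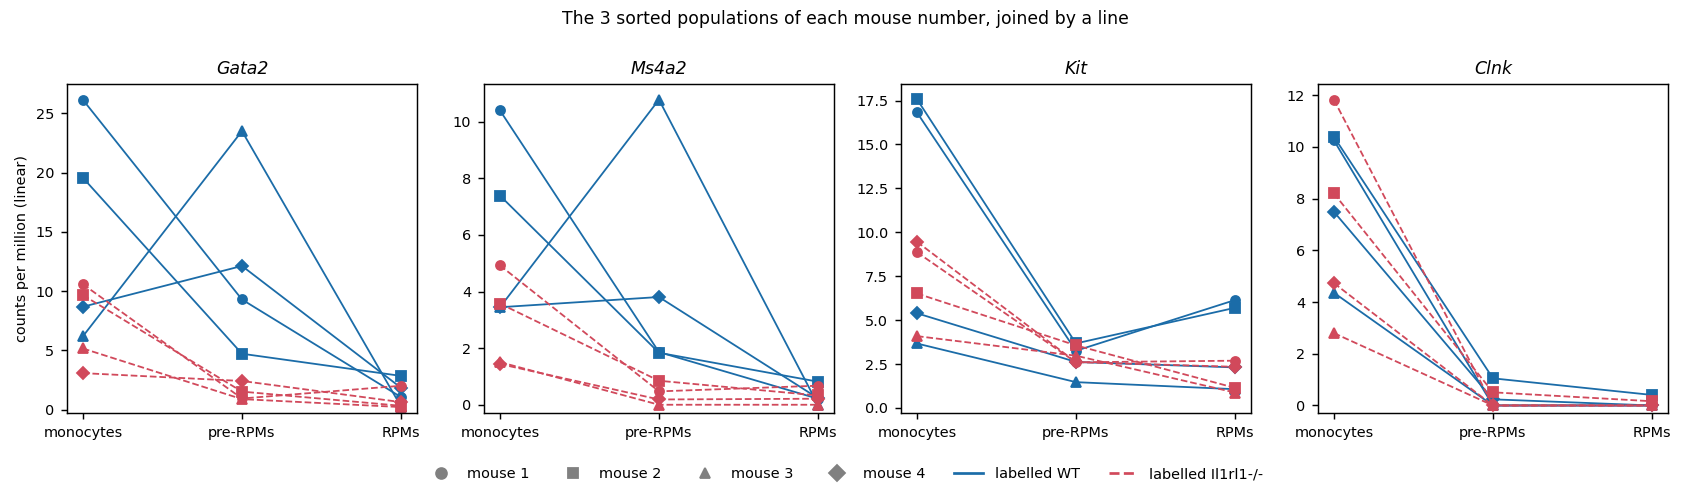
CPM (y axis, linear) of Gata2, Ms4a2, Kit and Clnk in the 3 gates (x axis), with a line joining the libraries of 1 mouse number, solid blue for WT and dashed red for the label Il1rl1-/-. The WT lines of Gata2 cross between monocytes (mice 1 and 2 at 26.2 and 19.6 CPM) and pre-RPMs (mice 3 and 4 at 23.5 and 12.1 CPM), whereas those of Clnk all drop to 1.05 CPM or less.

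Among the 9 other genes Gata2 was closest to Ms4a2 in monocytes. Over the 8 monocyte libraries the Pearson correlation of log2 CPM was r = 0.964 for Ms4a2, with Spearman's rho = 1.00 (exact permutation test, p = 0.000372 for r and 4.96e-05 for rho). Adjusted over 12841 genes these were 0.0874 and 0.0637 by the exact permutation test, and without the 2 libraries farthest from the median of Gata2 r was 0.916. Mcpt8 (r = 0.945), Cd200r3 (r = 0.938), Cpa3 (r = 0.919) and Hdc (r = 0.910) came next, and without those 2 libraries r was 0.963, 0.946, 0.866 and 0.737 (exact permutation test over 8 libraries, adjusted p from 0.0874 to 0.121). Among all 12841 genes these 5 ranked 6th, 22nd, 36th, 60th and 84th by r. No gene passed an adjusted p of 0.05, and 2760 had an unadjusted p under 0.05.

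Clnk and Kit moved less closely with Gata2. In monocytes r was 0.778 for Clnk and 0.677 for Kit, at ranks 802 and 1587 (exact permutation test over 8 libraries, p = 0.0241 and 0.0648, adjusted p = 0.179 and 0.261), and Il4 stood at 0.330 (exact permutation test, p = 0.433). Without the 2 farthest libraries r of Kit was 0.970. Fcer1a, which was left out of the ranks for its low counts, had r = 0.898 (exact permutation test, p = 0.00384). The pooled r in monocytes and its p also carry the difference in means between genotypes. As deviations from the genotype means in monocytes, r was 0.952 for Ms4a2, 0.922 for Mcpt8 and 0.913 for Cd200r3, at lower ranks of 44, 128 and 164. Permuted within each genotype, the exact test gave p = 0.00868, 0.0139 and 0.0382, not adjusted.

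Pre-RPM libraries fell into separate groups by genotype, so the pooled r is given there without its p. As deviations from the genotype means, r was 0.852 for Cpa3, 0.796 for Cd200r3, 0.732 for Hdc and 0.710 for Ms4a2 over the 8 libraries, at ranks 109, 250, 475 and 572 of 12841 genes, given as a description, and it was negative for Kit (-0.782) and Clnk (-0.532). None of the 7 genes ranked stood above 109 by that measure. By pooled r, which also carries the difference between genotypes, the 5 genes nearest to Gata2 in pre-RPMs were C3ar1 (0.977), Mipol1 (0.977), Cpa3 (0.972), Ttc28 (0.970) and Igkv8-34 (0.969). In RPMs Gata2 held 1 to 14 reads, and no r of a single gene is given.

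**Figure D3:**
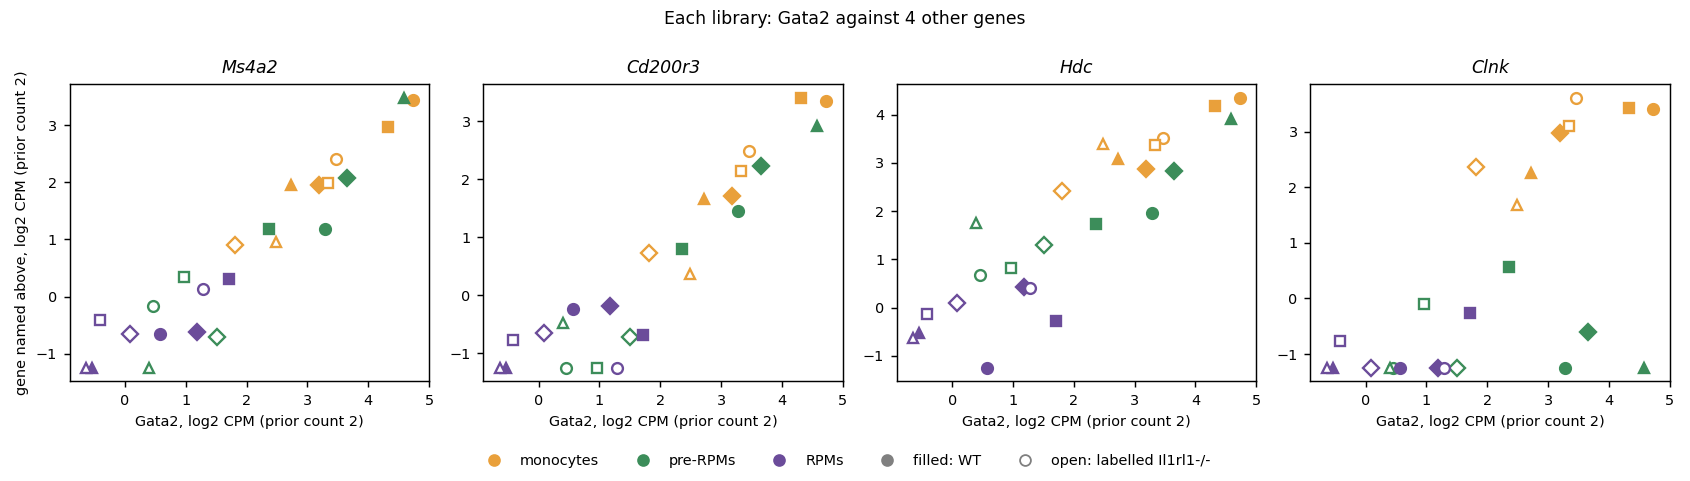
Log2 CPM of Gata2 (x axis) against log2 CPM of Ms4a2, Cd200r3, Hdc and Clnk (y axis) in the 24 libraries, colored by gate, filled for WT and open for the label Il1rl1-/-, with circle, square, triangle and diamond for mice 1 to 4. Ms4a2 and Cd200r3 rise with Gata2 across libraries (r = 0.952 and 0.931), whereas Clnk (r = 0.637) has high values in monocytes only.

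Over all 24 libraries, r to Gata2 is a description, since the points share gates and differ in depth. By that measure Ms4a2 (0.952), Cd200r3 (0.931) and Hdc (0.893) held ranks 1, 2 and 3 of 12841 genes, Cpa3 (0.842) rank 13 and Mcpt8 (0.834) rank 23. Clnk (0.637) stood at rank 1098 and Kit (0.620) at rank 1257. Taken as deviations from the 6 group means, the 5 genes most like Gata2 were Cpa3 (0.838), Ms4a2 (0.821), Cd79a (0.782), Mcpt8 (0.780) and Sptbn1 (0.769). Cd79a, part of the B cell receptor, and Sptbn1, a spectrin, are not basophil genes. The median r over all genes was 0.000584 across libraries and 0.0142 by deviations.

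**Figure D4:**
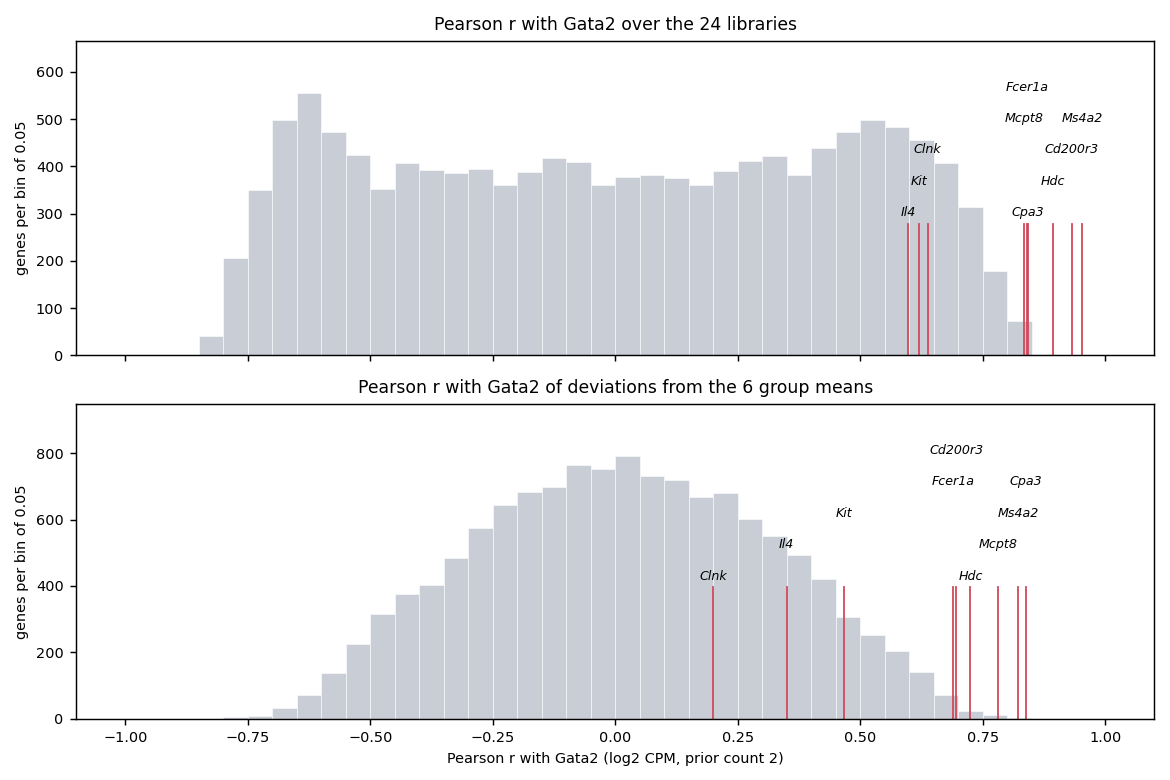
Distribution over 12841 genes of the correlation of each gene with Gata2 over 24 libraries, as log2 CPM and as deviations from the 6 group means (x axis r, y axis number of genes per bin), with red lines at the 9 other genes. By deviations Cpa3 (0.838), Ms4a2 (0.821) and Mcpt8 (0.780) lie at the upper end, and Clnk (0.199) lies near the bulk of genes.

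Of the other basophil genes, 1 was called between genotypes in pre-RPMs. Of 14 listed, 12 exceeded 3 counts in some library and 7 were tested between genotypes in pre-RPMs. Of these, 1 was called lower, beside 0.552% of all genes tested there. That gene was Itga2, the integrin chain CD49b that basophils share with NK cells, at 10.0 ± 2.25 CPM in WT pre-RPMs and 3.71 ± 0.711 in those labelled Il1rl1-/- (log2 fold change -1.45, SE 0.24, edgeR, adjusted p = 0.00693). The list summed to 301 to 372 CPM in WT pre-RPMs and 278 to 320 CPM in the libraries labelled Il1rl1-/-, mostly from genes that myeloid cells also use, such as Alox5ap and Csf2rb. Prss34, a basophil protease, held 2 to 8 counts in WT monocytes, 0 to 5 in WT pre-RPMs and 0 in all pre-RPM libraries labelled Il1rl1-/-.

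Genes of mast cells were mostly absent. Of 9 listed, 4 exceeded 3 counts in any library, and Tpsab1 and Mrgprb2, which define connective tissue mast cells, were at 0 in all WT monocyte and all pre-RPM libraries. Of the list, 1 was tested between genotypes in pre-RPMs, and edgeR called 0, with 0 at an unadjusted p under 0.05. Cma1, a chymase, was the exception by level, at 34.8 ± 15.3 CPM in WT monocytes and 2.86 ± 0.703 in WT pre-RPMs (n = 4 each), and fell by 3.6 on the log2 scale (SE 0.36, edgeR, adjusted p = 0.000311). Mitf, a transcription factor of mast cells and macrophages, was at 12.8 ± 1.89 CPM in WT pre-RPMs and 12.7 ± 2.66 in those labelled Il1rl1-/-.

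The signaling genes downstream of the IgE receptor, which many leukocytes use, were not called between genotypes. All 13 were tested, and edgeR called 0 in monocytes and 0 in pre-RPMs, with 0 and 2 at an unadjusted p under 0.05 and a median log2 fold change of -0.05 and 0.03. The kinases Lyn and Syk had log2 fold changes of 0.11 and -0.10 between genotypes in pre-RPMs (edgeR, adjusted p = 0.788 and 0.798). Of 10 GATA factors and partners, 8 were tested in pre-RPMs and 1 was called between genotypes, beside 0.552% of all genes tested there. It was Ets1, a transcription factor of lymphocytes, at 41.3 ± 7.16 CPM in WT pre-RPMs and 21.9 ± 7.40 in those labelled Il1rl1-/- (log2 fold change -0.89, SE 0.19, edgeR, adjusted p = 0.0454).

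Markers of other cells moved beside Gata2 in some of these comparisons, and their part in the results was not tested. NK cell genes summed to 103, 133, 84.5 and 65.2 CPM in WT pre-RPMs of mice 1 to 4 and to 16.8, 48.0, 28.9 and 12.9 CPM in those labelled Il1rl1-/-, without overlap. Of these genes 3 of 4 tested (Ncr1, Prf1 and Gzma) were called lower, beside 0.552% of all genes tested there. Ncr1, the NK receptor NKp46, had a log2 fold change of -2.04 (SE 0.31, edgeR, adjusted p = 0.00388). By mouse the NK sum was highest in WT pre-RPMs of mouse 2, where Gata2 was lowest. In WT monocytes the NK sum was 1517, 1785, 534 and 986 CPM in mice 1 to 4, so that mice 1 and 2 were high there for NK genes as for Gata2.

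Of the other marker lists, fewer genes were called between genotypes in pre-RPMs. Of B cell genes, 1 of 4 tested was called, beside 0.552% of all genes tested there. It was Ms4a1 (log2 fold change -1.40, SE 0.29, edgeR, adjusted p = 0.0383). B cell genes summed to 26.5 to 41.2 CPM in WT pre-RPMs and 13.1 to 25.6 CPM in those labelled Il1rl1-/-, without overlap. Of the lists for monocytes, red pulp macrophages, eosinophils, stem cells and progenitors, T cells, ILC2, neutrophils, megakaryocytes and the erythroid lineage, edgeR called 0 of 34 genes tested there, with 10 at an unadjusted p under 0.05. Over all 10698 genes tested there, 941 had an unadjusted p under 0.05 by edgeR. The ILC2 list, which holds other genes of ST2-bearing lymphocytes, summed to 10.7 to 16.7 CPM in WT pre-RPMs and 5.96 to 8.65 CPM in those labelled Il1rl1-/-, without overlap. Erythroid genes summed to 253 CPM in WT pre-RPM mouse 3, which also had the highest Gata2, and to 6.03 to 29.0 CPM in the other WT pre-RPM libraries. Without that library the log2 fold change of Gata2 between genotypes in pre-RPMs was -2.51. Leaving out 1 library does not test whether erythroid genes have a part in the level of Gata2, and this was not tested.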

How the data were processed

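RNA-seq counts per gene were deposited for 24 libraries, and the authors had trimmed the reads with cutadapt and used STAR 2.5.1 as aligner. The labels give cutadapt 2.8, whereas the paper names another version. Trim Galore 0.50, also listed in the labels, is named in the paper for the ATAC-seq reads only. Pairs were then assigned to exons of GRCm38 release 95, strand-aware and by gene name, with featureCounts 1.6.2 (tools per the labels, counting per the file headers). The header shows no option for reads that map to several places, so genes with near copies, such as the granule proteases, may be undercounted. No row lacked a gene name.

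Counts were used as deposited in R 4.3.3. Each comparison was fitted to its own 8 libraries (16 for an interaction) with edgeR 4.0.16 (TMM scaling, filterByExpr, glmQLFit, glmQLFTest, Benjamini-Hochberg over all genes tested). Genotype and interaction calls required an adjusted p under 0.05, and gate calls an adjusted p under 0.01 with an absolute log2 fold change above 1. Single genes were also tested by two-sided exact permutation of log2 CPM (prior count 2) over 4 against 4 libraries, which cannot go below p = 0.0286. CPM divides a count by its library's total count times the TMM factor, and error bars are SD over 4 libraries. Correlations used log2 CPM of the 12842 genes kept over all libraries, of which 8 of the 10 genes described were part (not Fcer1a and Il4). Alternatives were DESeq2 1.42.0, DESeq2-type size factors, other count filters, all libraries in 1 fit, mouse number as a block, leaving out each library, and a prior count of 0.5. The scripts were tested on simulated data.

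The labels give 1 mouse number across the 3 gates, read here as 1 animal, so the block pairs gates (correlation of same-number deviations from the group means -0.0394 to 0.306 over the 6 gate comparisons). Between genotypes the numbers mark different animals. Those deviations correlated at 0.118 to 0.452 in monocytes and 0.149 to 0.182 in RPMs, but at 0.0452 to 0.155 in pre-RPMs, where the number was not taken as a pairing. Even so, each WT pre-RPM library correlated best with the same-numbered library labelled Il1rl1-/-.

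The genes and lists were chosen with earlier results of these data known. The text names all 10 genes, the 5 genes most like Gata2 by deviations from the group means and the 5 by r in pre-RPMs, Il1rl1, and from each further list the genes called between genotypes or up to 3 of high mean CPM. Marker genes at or near 0, the ratios to Gata2, the counts of genes whose groups did not overlap and the choice of printed promoters were set after values were seen. Promoter sequences came from RefSeq (GRCm38.p6).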

Additional observations from a re-analysis of the deposited data

Results flagged for a closer look

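Of 45 groups of 4 libraries tested for a library far from the rest, 2 were marked, both for Cpa3, and chance marks about 1 in 20 groups. In WT RPMs mouse 2 stood at 3.26 CPM (16 counts), against 0.847 to 1.15 CPM in the other 3 libraries, and the gap took up 0.873 of the range. In monocytes labelled Il1rl1-/- mouse 1 stood at 3.45 CPM (14 counts), against 0.823 to 1.26 CPM, with a gap of 0.833 of the range. Between genotypes Cpa3 was not called in monocytes. In RPMs edgeR did not test it, and its groups overlapped (exact permutation test, p = 0.0571).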

How the results depend on the processing

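The call of Gata2 between genotypes in pre-RPMs held in each fit that tested it. Of 207 counts and summary values under the alternatives, 172 equalled the main value or lay within a set margin of it. Equal counts include 0 against 0 where a setting left none of the genes to test. Of 361 values of single genes, 348 kept the sign and the call status of the main fit, and their size was not compared. The number of the 10 genes called moved most with the filter. With no filter edgeR called 3 genes between genotypes in monocytes, 5 in pre-RPMs, 3 from WT monocytes to pre-RPMs, 5 from WT pre-RPMs to RPMs, 8 from WT monocytes to RPMs, 7 from monocytes to pre-RPMs and 7 from monocytes to RPMs of the label Il1rl1-/-, and 2 in the interaction from monocytes to pre-RPMs, where the shares called over all genes were 0.448%, 0.889%, 3.57%, 10.8%, 11.4%, 3.48%, 12.4% and 0.227%. With at least 10 counts in every library compared it called 0 in pre-RPMs between genotypes, 0 in each of the 3 WT gate comparisons, 1 from monocytes to pre-RPMs and 0 from monocytes to RPMs of the label Il1rl1-/-, since few or none of the genes were left to test. The shares called over all genes were then 0.430% between genotypes in pre-RPMs and 2.36%, 16.8% and 16.3% from WT monocytes to pre-RPMs, WT pre-RPMs to RPMs and WT monocytes to RPMs. For the 2 comparisons of the label Il1rl1-/- they were 2.93% and 17.2%. DESeq2 called 4 between genotypes in pre-RPMs, 2 from WT monocytes to pre-RPMs, 5 from WT pre-RPMs to RPMs, and 6 and 7 from monocytes to pre-RPMs and to RPMs of the label Il1rl1-/-, beside 0.456%, 4.75%, 18.7%, 5.11% and 20.2% of all genes. All 24 libraries in 1 fit gave 2 between genotypes in pre-RPMs, 2 from WT monocytes to pre-RPMs and 4 from WT pre-RPMs to RPMs, beside 0.132%, 6.01% and 23.6% of all genes.

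The mouse number as a block gave 2 called genes between genotypes in pre-RPMs, by adding Hdc at -1.75 (edgeR, adjusted p = 0.00784), beside 1.36% of all genes. From WT monocytes to pre-RPMs it gave 2, by adding Kit, beside 4.54% of all genes. The main fits called 0.552% and 3.57% of all genes in these comparisons, so the block raised the calls over all genes too. Beyond the calls of Kit given above the block changed no other call. Leaving out 1 library gave 1 to 3 called genes between genotypes in pre-RPMs, where Cd200r3 was added without WT mouse 2 or any 1 library labelled Il1rl1-/- and Hdc also without WT mouse 2, and 0 to 0 in monocytes, in RPMs and in both interactions. It gave 1 to 2 from WT monocytes to pre-RPMs (Kit without WT monocyte mouse 3), 2 to 3 from WT pre-RPMs to RPMs, 5 to 6 from WT monocytes to RPMs, 2 to 4 from monocytes to pre-RPMs of the label Il1rl1-/-, 0 to 0 from pre-RPMs to RPMs and 4 to 4 from monocytes to RPMs. The shares of all genes called in the leave-out fits are not given here, so these counts are not read as results about the genes. Gata2 from WT monocytes to pre-RPMs turned from -0.30 to 0.12 without WT monocyte mouse 1, with a range over the left-out libraries from -0.80 to 0.12. The cause of these shifts was not tested, and Gata2, Ms4a2 and Cd200r3 in monocytes were tested both with and without the filter.

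As a description, the median r of the 9 other genes with Gata2 was 0.820 in pre-RPMs, 0.635 there by deviations from the genotype means and 0.642 without the 2 farthest libraries, and 0.508 in RPMs without the 2 farthest libraries. On leaving out 1 library it was 0.862 to 0.928 in monocytes, 0.753 to 0.908 in pre-RPMs and 0.563 to 0.731 in RPMs. With a prior count of 0.5, 3 rather than 5 of the genes were among the 100 most like Gata2 by deviations. In RPMs and in pre-RPMs labelled Il1rl1-/-, where most counts were under 4, depth sets the limit of each value.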
